A study of Homo sapiens with 6 samples.

Results

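The genes described are 9 structural genes of the brush border, the carpet of microvilli on the apical surface of absorptive epithelium: the cadherins CDHR2, CDHR5 and CDH17, the scaffold USH1C, the myosin MYO7B, the actin bundling and capping genes VIL1, PLS1 and EPS8, and the membrane linker EZR. They were taken by symbol from a table of 17211 genes, in which all 9 had a row, and all 9 passed the filter on low values. The choice was made with the difference between the groups known, so levels, fold changes and calls of these 9 genes are descriptions and support no statement about why they were chosen. The cells were CAOV2, a human ovarian cancer line that the labels also call primary, grown in DMEM with serum. Cells of the siTAZ group (3 libraries) had received siRNA against TAZ, the Hippo pathway coactivator encoded by WWTR1, and cells of the siNT group (3 libraries) a non-targeting siRNA. In both groups 100000 cells per well were transfected with 100 pmol of siRNA and 6 µL of lipid reagent for 2 days and collected on day 3. Silencing was transient, with 1 siRNA product per group and 1 cell line, and all cells of both groups carried the transfection reagent.

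A microvillus is built on a core of parallel actin filaments. Villin (VIL1), plastin 1 (PLS1) and espin bundle the filaments, EPS8 caps their tips, and ezrin (EZR) ties them to the membrane together with PDZ adaptor proteins. At the tips, the protocadherins CDHR2 and CDHR5 reach across to neighbouring microvilli, and their cytoplasmic tails bind harmonin (USH1C), which with ANKS4B and the motor MYO7B forms the intermicrovillar adhesion complex. CDH17, liver-intestine cadherin, sits instead on the lateral membrane of gut epithelial cells. A related set of Usher proteins holds the stereocilia of inner ear hair cells together.

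The 6 libraries held 28458503 to 34488196 reads in siTAZ and 25478595 to 28928432 reads in siNT. Levels are the deposited values, that is reads divided by 1 size factor per library. WWTR1 had 242, 277 and 280 in the 3 siTAZ libraries, against 4359, 4217 and 4258 in the 3 siNT libraries, and fell 16.1-fold (limma adjusted p = 8.0e-17). Defining markers of ovarian and Müllerian carcinoma were scarce. WT1, SOX17, EMX2, ESR1 and WFDC2 had no row in the table, PAX8 stood at 14.5 to 20.8 in siTAZ and 20.5 to 44.9 in siNT, and MUC16 at 6.23 to 9.18 in siTAZ and 8.38 to 15.7 in siNT. Keratins made up most of the summed level of that list. KRT8 averaged 39346 in siTAZ and 35206 in siNT, and KRT18 averaged 22365 in siTAZ and 27495 in siNT. KRT7 averaged 8604 in siTAZ and 22847 in siNT, a 2.66-fold fall. EPCAM rose 2.72-fold. The 7 of 12 ovarian epithelial markers with a row summed to 68777 to 75176 in siTAZ and 81981 to 88859 in siNT, with 3 called higher and 2 lower. For this and the other marker lists, the shares over all genes tested were 28.3% called higher and 27.5% called lower. Of 11 markers of intestinal epithelium, 7 had a row, among them the gut transcription factor CDX2, at 814 to 881 in siTAZ and 261 to 314 in siNT. All 7 were called higher and summed to 28050 to 28794 in siTAZ and 10726 to 11486 in siNT, with VIL1 and CDH17 themselves on that list. CDX1, FABP2, GPA33 and MUC2 had no row. Of 7 endothelial markers none had a row. The 6 fibroblast markers with a row summed to 6614 to 7502 in siTAZ and 5609 to 6399 in siNT, with 3 called higher (COL3A1, PDGFRA and PDGFRB, by 2.13-fold, 1.36-fold and 3.39-fold), 1 lower (COL1A2, listed at 0 in 1 siTAZ library) and LUM, the most abundant, not passing. The 4 leukocyte markers with a row summed to 283 to 339 in siTAZ and 151 to 161 in siNT, and PTPRC had no row. Of these 4, LYZ (6.08-fold) and CD14 (1.85-fold) were called higher and 2 did not pass. The 3 mesothelial markers with a row summed to 112 to 141 in siTAZ and 166 to 181 in siNT. CALB2 was called lower, by 2.83-fold, and the other 2 did not pass. The part of these markers in the results was not tested.

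Most of the 9 genes stood higher after TAZ silencing. By limma's test across all genes, with an adjusted p of 0.05 as the threshold, 7 of 9 were called higher in siTAZ, 1 lower and 1 did not pass. Calls of higher covered 28.3% of the 17204 genes that entered the fit, and calls of lower 27.5%. A rise of at least 2-fold was called for 6 of the 9, against 6.70% of all genes, and a fall of that size for 0 of the 9, against 3.91% of all genes. The libraries of the groups did not overlap for 8 of the 9, with siTAZ above in 7 and below in 1, where siTAZ lay above siNT without overlap in 31.1% of all genes and below it in 30.3%. Since the contrast was known when the genes were chosen, nothing is read from these shares. The median log2 fold change was 1.49 over the 9 genes and -0.00 over all genes tested. In these bulk libraries, a change in the number of cells that express a gene and a change in RNA per cell cannot be told apart.

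**Figure D1:**
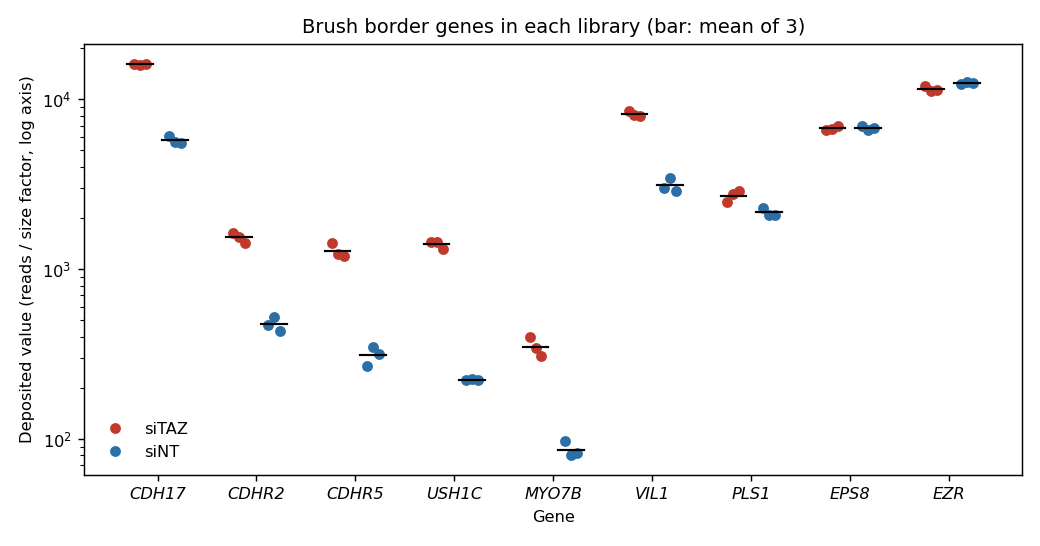
Deposited value (log axis) of each of the 9 genes in every library, siTAZ in red and siNT in blue, with a bar at the mean of 3 libraries. The siTAZ points lie above the siNT points for CDH17, CDHR2, CDHR5, USH1C, MYO7B, VIL1 and PLS1, overlap them for EPS8 and lie slightly below them for EZR.

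The pair of protocadherins that link microvilli tip to tip both rose. CDHR2 stood at 1632, 1557 and 1429 in the siTAZ libraries, against 468, 526 and 435 in the siNT libraries. All siTAZ libraries were above all siNT libraries, and the fold was 3.23 (log2 fold change 1.69, SE 0.07). CDHR5 stood at 1425, 1229.9 and 1195 in siTAZ, against 268, 346 and 317 in siNT. Again no library overlapped, with siTAZ replicate 1 the highest and siNT replicate 1 the lowest, and the fold was 4.13 (log2 fold change 2.05, SE 0.09). Within each library, the ratio of CDHR5 to CDHR2 per kilobase of the longest transcript, which does not depend on the scaling between libraries, was 1.08, 0.98 and 1.04 in siTAZ and 0.71, 0.82 and 0.90 in siNT. The ratio was higher in every siTAZ library than in every siNT library. Which of the pair is the more abundant depends on the transcript length used, since with the median length CDHR5 was above CDHR2 in every library, at a mean of 872 per kilobase against 378 in siTAZ, and 211 against 117 in siNT. CDHR2 overlaps GPRIN1 on the opposite strand. The kit keeps strand, but no source used here says whether the counting did, and GPRIN1 had the opposite order, with a mean of 1267 in siTAZ and 2082 in siNT. VIL1 likewise overlaps USP37 on the opposite strand, with a mean of 635 in siTAZ and 598 in siNT.

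USH1C, whose protein harmonin is the PDZ scaffold under both protocadherins, had the steepest rise of the 9. It stood at 1449, 1448 and 1318 in siTAZ, against 223, 226 and 222 in siNT. The 3 siNT libraries lay close together, the siTAZ libraries were all far above them, and the fold was 6.28 (log2 fold change 2.64, SE 0.07). MYO7B, the motor that carries the complex to the tips, was the scarcest of the 9. Its values were 398, 342 and 306 in siTAZ, against 97.4, 80.2 and 82.2 in siNT. Its SE was the widest of the 9, yet no libraries overlapped, and the fold was 4.03 (log2 fold change 2.00, SE 0.12). Another subunit of the complex, ANKS4B, which bridges harmonin and the myosin, is not among the 9. It stood at 1294, 1292 and 1311 in siTAZ, against 265, 304 and 269 in siNT, and rose 4.65-fold (log2 fold change 2.22, SE 0.07, limma adjusted p = 2.5e-13). CALML4, a light chain of MYO7B, stood at 242, 187 and 223 in siTAZ, against 141, 142 and 118 in siNT, and rose 1.62-fold (limma adjusted p = 1.0e-04). So the cadherins, the scaffolds, the motor and its light chain were all higher in siTAZ, by folds that ran from 1.62 to 6.28.

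Upstream sequences of some genes that moved together are shown beside that of EZR, which moved little, as a description of their letters only. RefSeq windows (GRCh38.p14) of 250 bases before and 50 after an annotated start were available for USH1C, EZR, PLS1, CDHR2 and MYO7B, 5 of the 9, with 10 windows in all. VIL1, CDH17, EPS8 and CDHR5 were not matched. Both strands were searched for short cores known from the sites of 5 families of factors. GGAATG served as the core for TEAD factors, CAAAGT for HNF4 proteins, GTTAAT for HNF1 proteins, TTTATG for CDX proteins and lastly AGATAA for the family named after that motif. No matches overlapped each other in these windows. The HNF4 core was found in 4 of the 10 windows, 1 each of USH1C, PLS1, CDHR2 and MYO7B (in PLS1 after the start), and in 11.9% of 35116 RefSeq windows of the same length. The TEAD core was found in 3 of the 10 windows, in PLS1 and MYO7B, and in 4928 of the 35116. The HNF1 core was found in 1 window, of CDHR2, and in 6.88% of all windows, while the GATA and CDX cores were found in PLS1 only, in 2 windows each, and in 10.3% and 10.6% of all windows. A match is a run of letters and not a binding site, and which start these cells use was not measured. The windows printed here were picked after the search, as those with the HNF4 core before the start for the 3 adhesion complex genes and the single window of EZR. In USH1C and CDHR2 the window with the match is not the one at the start of the longest transcript, from which it lies 10422 and 6831 bases away, and the windows near those starts hold no match to any core. The MYO7B window shown lies 119 bases from the start of its longest transcript and the EZR window 1177. Each is the 250 bases before the start, 5′ to 3′ on the gene's strand, with motif matches in capitals. They lie at chr5:176549092-176549341 on the plus strand for CDHR2, with the HNF1 core at -64 and the HNF4 core at -30 from the start, at chr11:17533886-17534135 on the minus strand for USH1C, with the HNF4 core at -91, at chr2:127535433-127535682 on the plus strand for MYO7B, with the HNF4 core at -40, and at chr6:158818236-158818485 on the minus strand for EZR, which holds no match.
CDHR2: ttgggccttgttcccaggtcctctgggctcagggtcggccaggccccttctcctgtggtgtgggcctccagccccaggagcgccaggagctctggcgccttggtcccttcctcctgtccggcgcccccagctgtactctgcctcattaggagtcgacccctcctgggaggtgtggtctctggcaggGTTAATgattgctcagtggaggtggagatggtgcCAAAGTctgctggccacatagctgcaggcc
USH1C: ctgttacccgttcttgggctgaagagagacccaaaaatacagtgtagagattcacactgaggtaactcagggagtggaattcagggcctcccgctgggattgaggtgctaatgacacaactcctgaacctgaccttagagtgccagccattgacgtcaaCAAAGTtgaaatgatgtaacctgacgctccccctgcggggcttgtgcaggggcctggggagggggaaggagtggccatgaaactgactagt
MYO7B: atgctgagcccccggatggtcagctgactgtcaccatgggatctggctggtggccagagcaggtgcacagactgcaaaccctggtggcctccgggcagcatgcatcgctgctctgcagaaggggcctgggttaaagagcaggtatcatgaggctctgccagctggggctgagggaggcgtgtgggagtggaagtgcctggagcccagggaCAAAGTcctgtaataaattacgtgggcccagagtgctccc
EZR: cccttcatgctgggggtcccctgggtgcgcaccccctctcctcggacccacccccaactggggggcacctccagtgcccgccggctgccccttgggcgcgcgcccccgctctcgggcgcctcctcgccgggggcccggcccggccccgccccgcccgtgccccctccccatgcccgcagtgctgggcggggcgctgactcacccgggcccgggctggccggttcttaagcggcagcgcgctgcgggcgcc
Among the 3 genes with a match shown here the folds were 3.23, 6.28 and 4.03, and the other annotated window of each lacks the HNF4 core. Their windows were printed because they hold that core, so nothing is read from these folds or from the contrast with EZR. EZR had 1 window to search, against 2 for each of the 3 genes. PLS1, which also holds the HNF4 core, rose only 1.26-fold.

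CDH17, the cadherin of the lateral membrane, was the most abundant of the 9 after TAZ silencing. It stood at 16101, 16024 and 16255 in siTAZ, against 6056, 5642 and 5566 in siNT. The siTAZ libraries lay within a narrow band far above the siNT libraries, and the fold was 2.80 (log2 fold change 1.49, SE 0.05). CDH16, the kidney cadherin that shares its unusual domain layout, stood at 94.6, 113 and 69.9 in siTAZ, against 11.5, 18.2 and 12.1 in siNT, and rose 6.64-fold (log2 fold change 2.65, SE 0.23, limma adjusted p = 4.5e-08). CDH1, the classical E-cadherin of adherens junctions, rose 2.27-fold to 579 ± 15.0 in siTAZ, against 256 ± 15.6 in siNT (SD, n = 3 each, limma adjusted p = 1.4e-09). Per kilobase, CDH17 exceeded CDH1 by 37.8, 36.5 and 36.3 times in the siTAZ libraries and by 31.2, 31.2 and 27.2 times in the siNT libraries. Liver-intestine cadherin was therefore far above E-cadherin at the RNA level in both groups.

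Among the genes of the actin core, villin rose, plastin 1 rose little and EPS8 did not pass the test. VIL1 stood at 8498, 8052 and 7983 in siTAZ, against 3007, 3460 and 2893 in siNT. All siTAZ libraries were more than double the highest siNT library, and the log2 fold change was 1.39 (SE 0.06). PLS1 stood at 2491, 2758 and 2896 in siTAZ, against 2291, 2098 and 2083 in siNT. The groups came close, with siTAZ replicate 1 just above siNT replicate 1, and the fold was 1.26 (log2 fold change 0.33, SE 0.06). EPS8 stood at 6583, 6715 and 6929.7 in siTAZ, against 6928, 6628 and 6773 in siNT. Its groups overlapped fully, and the log2 fold change was -0.01 with a 95% interval of -0.10 to 0.09, so a change as large as that of PLS1 lies outside the interval.

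EZR, the linker between actin and the membrane, was the 1 gene of the 9 called lower, by a small margin. It stood at 11955, 11205 and 11434 in siTAZ, against 12331, 12619 and 12536 in siNT. The siTAZ libraries were all just below the siNT libraries, and the log2 fold change was -0.12 (SE 0.04, 95% interval -0.21 to -0.02). That call was lost under total count scaling (log2 fold change -0.06), without siTAZ replicate 2 (-0.10) or 3 (-0.11), and without siNT replicate 2 (-0.11) or 3 (-0.11). Relative to EZR in the same library and per kilobase, VIL1 was at 0.34, 0.34 and 0.33 in siTAZ and 0.12, 0.13 and 0.11 in siNT. USH1C relative to EZR was at 0.14, 0.15 and 0.13 in siTAZ and 0.02 in each siNT library. These ratios do not depend on how libraries were scaled, and for both genes every siTAZ library was above every siNT library. Their size, but not the order of the groups, depends on the transcript length, here the longest. With the median length VIL1 stood above EZR in siTAZ, at a mean of 5624 per kilobase against 3759. It stayed below EZR in siNT, at 2146 against 4073.

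Compared per kilobase of the longest protein-coding transcript, the order of the 9 genes differed between the groups. In siTAZ it ran CDH17 (4367 ± 31.8), EZR (3725 ± 124), EPS8 (1344 ± 34.9), VIL1 (1252 ± 42.8), PLS1 (723 ± 54.8), USH1C (520 ± 28.1), CDHR5 (353 ± 34.0), CDHR2 (341 ± 22.8) and MYO7B (51.9 ± 6.88), in deposited value per kilobase (SD, n = 3). Only CDHR5 and CDHR2 overlapped as neighbours there. In siNT the order was EZR (4036 ± 47.9), CDH17 (1558 ± 71.4), EPS8 (1351 ± 29.9), PLS1 (575 ± 30.9), VIL1 (478 ± 45.9), CDHR2 (106 ± 10.2), CDHR5 (85.4 ± 10.9), USH1C (82.8 ± 0.62) and MYO7B (12.9 ± 1.402), with an overlap only between CDHR5 and USH1C. VIL1 and PLS1 thus changed places between the groups, as did CDH17 and EZR. In siTAZ USH1C stood above both protocadherins, and in siNT it was below CDHR2 and overlapped CDHR5, but with the median transcript length it was below CDHR5 in both groups (628 against 872 per kilobase in siTAZ, 99.97 against 211 in siNT). The ratio of USH1C to CDHR2 per kilobase was 1.48, 1.55 and 1.54 in siTAZ and 0.80, 0.72 and 0.85 in siNT. MYO7B was the lowest in both groups, at 0.11, 0.10 and 0.09 of USH1C per kilobase in siTAZ and 0.18, 0.14 and 0.15 in siNT. Among 16743 genes with a transcript length, CDH17 was at percentile 97.9 in siTAZ and 91.2 in siNT, USH1C at 75.1 in siTAZ and 41.3 in siNT, and MYO7B at 34.9 in siTAZ and 18.6 in siNT. The order depends on the length chosen, since the isoforms in use are unknown. With the median transcript length, which is 1.454 kilobases for VIL1 and 0.6215 for PLS1 against 6.531 and 3.755 for the longest, both stood above EZR in siTAZ.

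**Figure D2:**
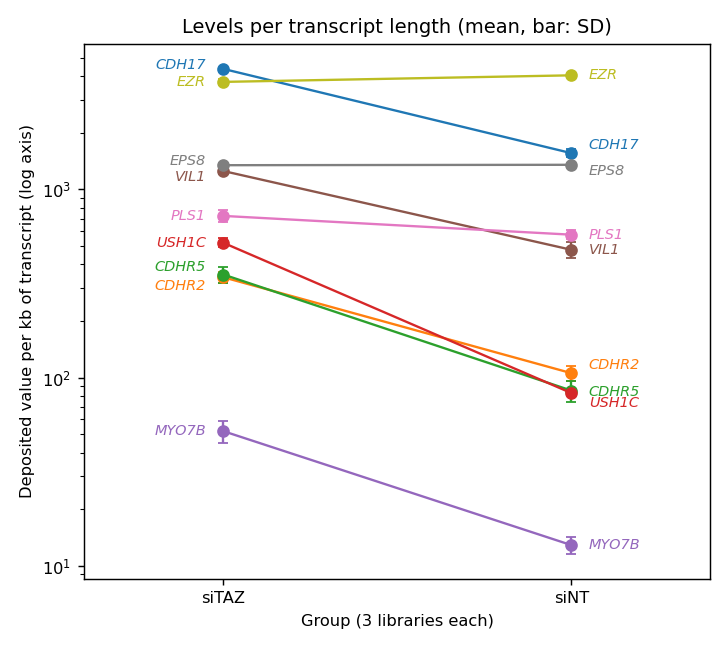
Mean deposited value per kilobase of the longest protein-coding transcript (log axis) of the 9 genes in siTAZ and siNT, with bars for the SD over 3 libraries. Lines for CDH17, USH1C, CDHR5, CDHR2, MYO7B and VIL1 drop steeply toward siNT, those of EZR and EPS8 stay nearly level, and CDH17 crosses EZR.

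Each of 5 members belongs to a family whose other genes were measured in the same libraries, which shows how far the change was shared. All family shares are of levels per kilobase of the longest transcript. Their size depends on that length, and no other length was used for them. VIL1 made up 13.05%, 13.7% and 13.2% of the summed per-kilobase level of 8 villin and gelsolin family genes in siTAZ, against 5.29%, 5.54% and 4.76% in siNT. Of its relatives, scinderin (SCIN), a filament severing protein, rose 2.81-fold to 1675 ± 75.8 in siTAZ, against 595 ± 33.9 in siNT (SD, n = 3 each, limma adjusted p = 6.2e-12), while gelsolin (GSN) rose 1.19-fold and the capping protein CAPG fell 1.38-fold. PLS1 made up 29.1%, 29.5% and 29.9% of the plastins in siTAZ, against 22.8%, 22.8% and 22.9% in siNT. PLS3, the widely expressed plastin, fell 1.12-fold, and LCP1, the leukocyte plastin, was under 20 in every library.

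The share of EZR among the ERM genes did not separate the groups. It made up 55.5%, 54.4% and 53.4% of EZR, RDX and MSN in siTAZ, against 54.7%, 56.1% and 55.8% in siNT, and the groups overlapped. Radixin (RDX) rose 1.18-fold (limma adjusted p = 0.0023) and moesin (MSN) fell 1.15-fold (limma adjusted p = 0.0013). EPS8 made up 42.7%, 44.1% and 47.5% of its family in siTAZ, against 50.6%, 47.4% and 48.6% in siNT. Its relative EPS8L3 rose 1.80-fold, EPS8L1 fell 1.75-fold and EPS8L2 rose 1.11-fold, all past the threshold in limma. MYO7B made up 73.7%, 69.6% and 70.4% of the class VII myosin level in siTAZ, against 65.7%, 56.2% and 69.6% in siNT. MYO7A, the hair cell paralog, also rose, 2.82-fold to 156 ± 11.6 in siTAZ, against 55.3 ± 14.8 in siNT (SD, n = 3 each, limma adjusted p = 1.0e-06).

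**Figure D3:**
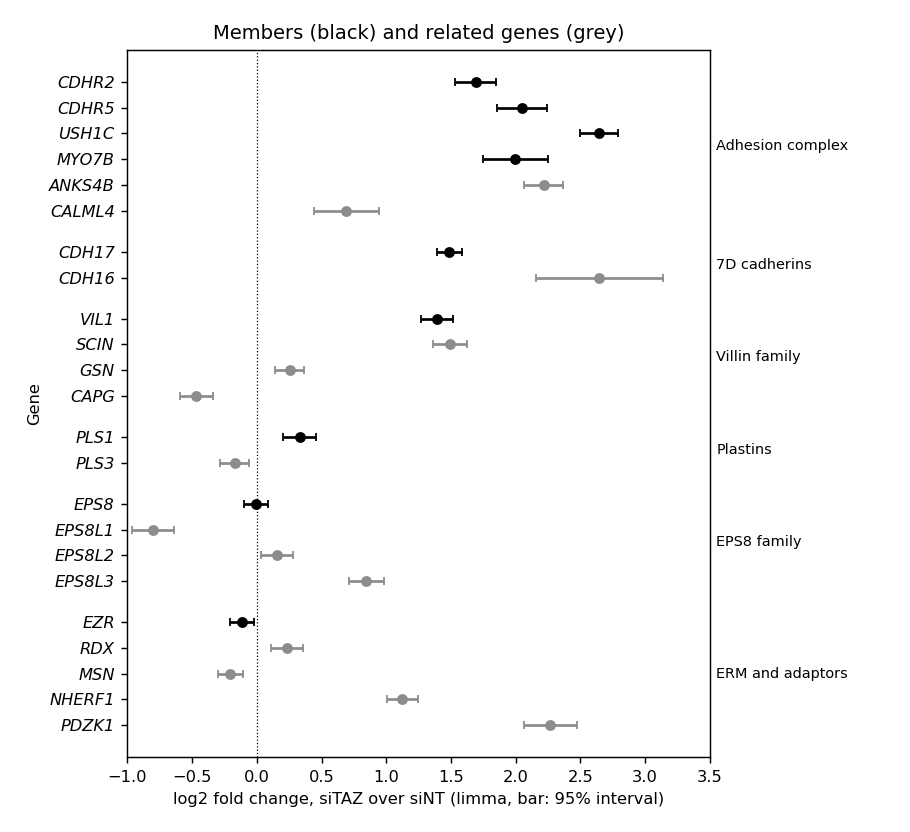
Log2 fold change of siTAZ over siNT with its 95% interval from limma for the 9 genes (black) and related genes (grey), grouped by complex or family. All 6 adhesion complex genes and both cadherins with the domain layout of CDH17 lie right of 0, whereas each of the other groups has genes on both sides.

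Other brush border genes were counted over lists written with earlier results of these data known. All list counts below stand beside shares over all genes tested of 28.3% called higher and 27.5% called lower. The median log2 fold change of all genes was -0.00. Whether any list departs from these shares was not tested. Of 14 genes of the adhesion complex and its Usher relatives, 12 had a row, of which 7 were called higher, 0 lower and 5 did not pass, and the median log2 fold change was 0.57. Beside ANKS4B, CALML4 and MYO7A, the called genes include PDZD7, a scaffold of hair cells, which rose 1.46-fold (limma adjusted p = 5.7e-04). The scaffold USH1G was scarce and did not pass, at 2.75 to 8.53 in siTAZ and 4.19 to 13.9 in siNT. PCDH15 had no row.

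Of 21 actin bundling and capping genes, 8 were called higher, 4 lower and 9 did not pass, and their median was 0.08. Espin (ESPN), the third bundler of the intestinal microvillus, stood at 197, 177 and 143 in siTAZ, against 44.0, 70.5 and 49.5 in siNT, and rose 3.16-fold (limma adjusted p = 3.4e-07). BAIAP2L2, a membrane bending protein of the IRSp53 family, rose 1.98-fold to 1822 ± 116 in siTAZ, against 921 ± 75.6 in siNT (SD, n = 3 each, limma adjusted p = 2.0e-09). Its relatives BAIAP2 and BAIAP2L1 did not pass, with log2 fold changes of -0.08 and -0.07.

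Of 19 measured genes of the ERM linkers, PDZ adaptors and their kinases, 9 were called higher, 5 lower and 5 did not pass, and their median was 0.11. PDZK1, a PDZ adaptor that holds transporters in the brush border, stood at 452, 512 and 478 in siTAZ, against 103, 104 and 90.6 in siNT, and rose 4.86-fold (limma adjusted p = 7.7e-12). Part of its reads could be shared with near copies of the gene. NHERF1, which binds ezrin, rose 2.18-fold to 10032 ± 576 in siTAZ, against 4607 ± 338 in siNT (SD, n = 3 each, limma adjusted p = 5.3e-11). NHERF4 rose 4.04-fold to 237 ± 29.7, against 58.6 ± 12.2. Podocalyxin (PODXL), an apical sialomucin that also binds ezrin, went the other way and fell 1.85-fold, at 4216 ± 132 in siTAZ and 7817 ± 411 in siNT (SD, n = 3 each, limma adjusted p = 1.8e-10).

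Of 16 measured genes of other unconventional myosins and apical traffic, 9 were called higher, 5 lower and 2 did not pass, and their median was 0.32. MYO1A, the brush border myosin that tethers the membrane to the core, stood at 499.8, 535 and 469.9 in siTAZ, against 159, 202 and 172 in siNT, and rose 2.82-fold (limma adjusted p = 1.2e-09). The apical syntaxin STX3 rose 1.85-fold to 5686 ± 43.0, against 3076 ± 120, and MYO6, which moves toward the base of the microvillus, rose 1.79-fold. PACSIN2, an endocytic membrane protein at the base of microvilli, fell 1.41-fold. Myosins were also among the genes called lower: MYO10 fell 1.35-fold, MYO5B 1.35-fold and MYO1C 1.25-fold.

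Of 20 measured genes of other cadherins and catenins, 12 were called higher, 4 lower and 4 did not pass, and their median was 0.33. CDH6, the kidney cadherin, rose 2.58-fold to 1779 ± 85.9, against 690 ± 44.4, and PCDH1 rose 2.32-fold (limma adjusted p = 1.7e-11 and 7.4e-11). CLSTN3 rose 1.66-fold.

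Of 21 brush border hydrolases, 11 had a row, and of these 6 were called higher, 0 lower and 5 did not pass, and their median was 0.89. MEP1A, the alpha subunit of the meprin protease, stood at 381, 369 and 358 in siTAZ, against 38.7, 50.2 and 38.7 in siNT, and rose 8.68-fold (limma adjusted p = 4.6e-12). DPP4, a dipeptidyl peptidase of the apical membrane, rose 1.90-fold to 6196 ± 328, against 3268 ± 132. Intestinal alkaline phosphatase (ALPI), which has near-identical paralogs, rose to 28.6 ± 6.22, against 8.66 ± 4.14, and NAALADL1, a peptidase, rose to 21.9 ± 5.27, against 2.22 ± 0.18 (SD, n = 3 each). ANPEP, aminopeptidase N, did not pass, with a log2 fold change of 0.09 (SE 0.07), and sucrase-isomaltase (SI) and lactase (LCT) had no row.

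**Figure D4:**
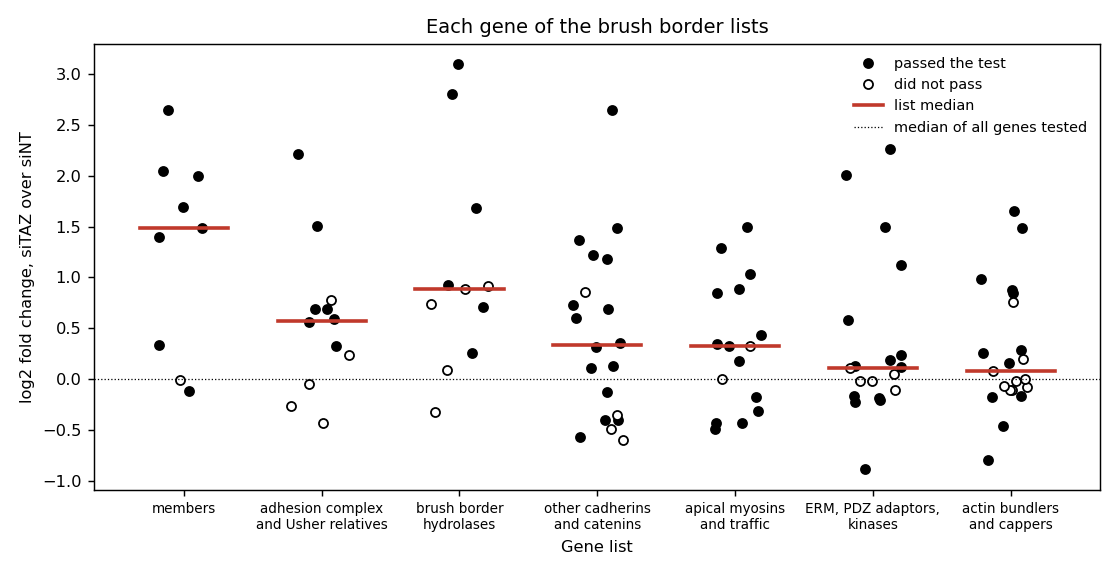
Log2 fold change of siTAZ over siNT for every tested gene of each list, filled where limma's adjusted p was under 0.05 and open where it was not, with the list median as a red bar and the median of all genes as a dotted line. The medians run from 1.49 in the 9 members and 0.89 in the hydrolases to 0.08 in the actin bundlers and cappers.

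The genes most like VIL1 over the 6 libraries, among 11319 named genes with a mean of at least 100, were IDH2, ELF3, CCDC92, IGFBP3 and PPIC, with Pearson's r of log2 values of 0.9997, 0.9995, 0.9995, 0.9995 and 0.9994. With 2 groups of 3 libraries, such r values rest mainly on the difference between the groups. Among the 9 genes, r with VIL1 was 0.999 for CDHR2, 0.995 for CDHR5, 0.994 for USH1C, 0.991 for CDH17, 0.983 for MYO7B and 0.878 for PLS1, and it was -0.206 for EPS8 and -0.861 for EZR.

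Replicates of 1 group differed by at most 0.20 on the log2 scale from their group mean over the 9 genes, and in siTAZ replicates 1 and 3 the deviations moved with base composition. In siTAZ replicate 1, MYO7B (0.20), CDHR5 (0.16) and CDHR2 (0.09), whose longest transcripts have 60.1%, 64.5% and 58.8% GC, lay above the group mean, and PLS1 (-0.12), with 36.1% GC, lay below it. In siTAZ replicate 3 the same genes lay on the opposite sides. Deviations from a group mean cancel over the replicates of that group, so the patterns of replicates 1 and 3 are not separate observations. Over the 9 genes, which share these libraries, r between deviation and GC content was 0.90, -0.28 and -0.91 in siTAZ replicates 1, 2 and 3, and -0.39, 0.35 and 0.11 in siNT replicates 1, 2 and 3. Over 16737 genes it was 0.30, -0.14 and -0.19 in siTAZ and -0.26, 0.17 and 0.08 in siNT. In siNT replicate 1 the GC-rich MYO7B (0.17) and CDHR5 (-0.20) lay on opposite sides of the group mean. The log2 fold change had an r with GC content of 0.67 over the 9 genes and of -0.02 over the 16737 genes. With the GC trend removed from each library, the log2 fold changes were 2.67 for USH1C, 2.07 for CDHR5, 2.01 for MYO7B, 1.71 for CDHR2, 1.46 for CDH17, 1.37 for VIL1, 0.29 for PLS1, -0.05 for EPS8 and -0.11 for EZR, close to those with the trend left in.

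**Figure D5:**
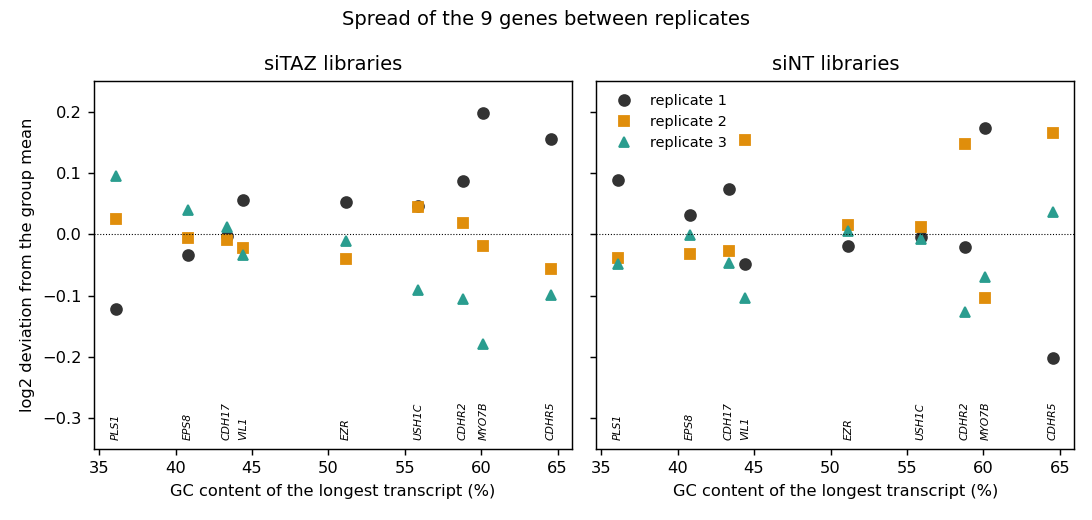
Log2 deviation of each library from its group mean for the 9 genes, plotted against the GC content of the longest transcript in percent, for the siTAZ libraries (left) and the siNT libraries (right). In siTAZ, replicate 1 runs upward with GC content and replicate 3 downward, and all deviations are within about 0.20 of 0.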

How the data were processed

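Poly(A) RNA from 3 siTAZ and 3 siNT samples was sequenced with a stranded kit, per the labels' protocols. FastQC, HISAT2, HTSeq and DESeq2 and the build hg19 are named in the submitters' processing notes, with no version, annotation, strand setting or gene filter named in any source used here. The deposited values are a signal, reads divided by 1 size factor per library: scaled by that factor, 100% came out as whole reads with a tolerance of 0.001. All 6 sample columns were used. Of 17211 identifiers, 16662 were named from a table of Ensembl identifiers, 81 from GENCODE 29 and 468 stayed unnamed. GENCODE 29 is of GRCh38 and served for names, overlaps, transcript length and GC content only.

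Limma 3.58.1 in R 4.3.3 was fitted, with an intensity trend and group as the only term, to deposited values put on a log2 scale after adding 1. Genes averaging under 1 were left out, which kept 17204. Benjamini-Hochberg adjustment ran over all of these. Log2 fold changes are siTAZ over siNT on that scale, which understates low genes, and other folds are ratios of mean deposited values. Recovered counts went into edgeR 4.0.16, DESeq2 1.42.0 and limma voom as alternatives. The main limma fit and the edgeR, DESeq2 and limma voom fits were tested on simulated data, with far fewer changed genes than were called here. The other alternatives were not. Named genes are the 9 genes, WWTR1, up to 4 called genes per list with the smallest adjusted p, close paralogs of the 9, the 5 genes most like VIL1, markers, and ANPEP, SI, LCT, USH1G, PCDH15, ESPN, USP37 and GPRIN1, chosen after their values were seen. BAIAP2 and BAIAP2L1 are named outside these rules, as relatives of BAIAP2L2. MYO10, MYO5B, MYO1C, CDH24, CTNNA1, CDH11 and FAT1 are also named outside them, as genes called lower in their lists. The members and lists were chosen with earlier results of these data known. The labels call the samples biological replicates without naming separate cultures, so the spread that p-values rest on is that of these 6 samples and may be technical. Replicates were no copies, since chi-square divided by its degrees of freedom was 2.64 to 8.10 for pairs within a group. Python 3.11.15, pandas 2.3.3, numpy 2.4.6 and matplotlib 3.10.9 were used.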

Additional observations from a re-analysis of the deposited data

How the results depend on the processing

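Over 17 alternatives, the 7 calls of higher genes among the 9 held under all, and of 153 member values 147 kept their call and 6, all of EZR, lost it. The count of the 9 called lower was 1, and it was 0 under total count scaling and with the replicate block (adjusted p = 0.15 for EZR), and 0 to 1 over the fits that left out a library. The log2 fold change of USH1C ran from 2.60 to 2.70 and that of EPS8 from -0.05 to 0.05. Of 778 values of other genes, those named by the list rules or as most like VIL1, 777 kept their call. Actin bundlers and cappers called lower numbered 4, and 2 under total count scaling. Leaving out 1 library gave 2 to 4 cadherins and catenins called lower, with 2 without siTAZ replicate 1 or 3 or siNT replicate 1, and 0 to 1 hydrolases called lower, with 1 without siNT replicate 3. The highest of the 9 levels per kilobase in siTAZ was 84.1 times the lowest, and 68.3 times with median transcript lengths. The replicate numbers of the titles did not pair the samples: deviations of same-numbered libraries correlated at -0.08, -0.02 and 0.01, and libraries did not each correlate best with their own number. With the replicate block, 8701 genes were called, against 9604 without it. Removal of the GC trend was added after the data were seen. With 3 libraries a group and 80.2 to 398 per library, MYO7B has the widest interval of the 9.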
